A study of Homo sapiens with 6 samples.

Results

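The 9 genes described here encode enzymes that break down extracellular matrix at and near the cell surface, together with their inhibitors and the urokinase receptor. They are 4 matrix metalloproteinases (MMP1, MMP2, MMP7 and MMP14), 3 tissue inhibitors of metalloproteinases (TIMP1, TIMP2 and TIMP3), urokinase (PLAU) and its receptor (PLAUR). They were chosen by symbol, and all 9 were found among the 61541 genes of the deposited tables. Direct RNA nanopore sequencing, in which the poly(A) RNA strand itself passes through the pore, was run on RCC4 cells, a human line grown from a clear cell renal carcinoma. One group of 3 libraries came from untreated cells. The other group of 3 came from cells given interferon gamma (IFNγ, 1000 U/mL) and tumour necrosis factor (TNF, 25 ng/mL) for 24 h. The cytokines were given together, so the part of each cannot be told apart. All 6 libraries came from this 1 line, each biological replicate was made from 3 flasks, and every culture grew in medium with serum.

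Matrix metalloproteinases are zinc-dependent enzymes made as inactive precursors, and TIMPs block them by binding the active site. Urokinase, held at the cell surface by its receptor, turns plasminogen into plasmin, which cleaves matrix proteins and can activate several MMP precursors. In inflamed and cancerous tissue, genes of both systems are known targets of cytokines and of AP-1 transcription factors. Transcript counts say nothing of whether a protease is secreted, activated or inhibited.

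Library totals ran from 3626000 to 4406296 counts. Levels are given as CPM, read counts brought to one common depth after TMM scaling, and a level compared between genes is given as CPM per kilobase of exonic length. In direct RNA sequencing a read stands for 1 molecule, so this division lowers genes with long exons relative to their number of molecules. All 8 markers of renal carcinoma epithelium had counts, among them PAX8 and CA9, with a summed level of 6486 to 8126 CPM in untreated and 8639 to 11810 CPM in treated libraries. VIM supplied most of that sum and rose (4592 ± 312.8 to 7283 ± 904.7 CPM; SD, n = 3 each; edgeR adjusted p 0.0274). PAX8 and KRT19 fell, with log2 fold changes of -0.79 and -1.08 (edgeR adjusted p 0.0316 and 0.00995), and the other 5 did not pass the threshold. None of the 5 endothelial markers had a count. For leukocytes, 2 of 7 markers had counts, with a summed level of 2.94 to 5.74 CPM in untreated and 1.14 to 1.73 CPM in treated libraries, and PTPRC, CD3E, CD68 and LYZ were among those at 0. For fibroblasts, 3 of 8 had counts, with a summed level of 56.6 to 76.4 CPM in untreated and 28.1 to 49.5 CPM in treated libraries, whereas COL1A2, COL3A1, PDGFRA, DCN and LUM were at 0. Of those with counts, CSF1R (leukocyte) and PDGFRB (fibroblast) were called lower, with log2 fold changes of -1.90 and -1.91 (edgeR adjusted p 0.0314 and 0.0049). COL1A1 supplied most of the fibroblast sum and was not called (edgeR adjusted p 0.230), and ITGAM and THY1 had too few counts for a test. The epithelial, leukocyte and fibroblast sums did not overlap between the groups, and their part in the results was not tested.

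After IFNγ and TNF, PLAUR was the 1 gene of the 9 that rose past the threshold, by 3.43-fold. PLAU was 2.72-fold higher as fitted, with groups that overlapped. TIMP1, the most abundant of the 9, and MMP14, TIMP2 and MMP1 did not pass the test, MMP7 had too few counts for it, and MMP2 and TIMP3 had 0 counts in all 6 libraries. Over all 10067 genes tested, 5.58% were called higher and 2.55% lower by edgeR's quasi-likelihood test with an adjusted p threshold of 0.05. Of the 6 members tested, 1 was called higher and 0 lower, with a median log2 fold change of 0.24 against -0.03 over all genes. In RNA from whole cultures, fewer cells of a kind and less RNA per cell cannot be told apart.

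**Figure D1:**
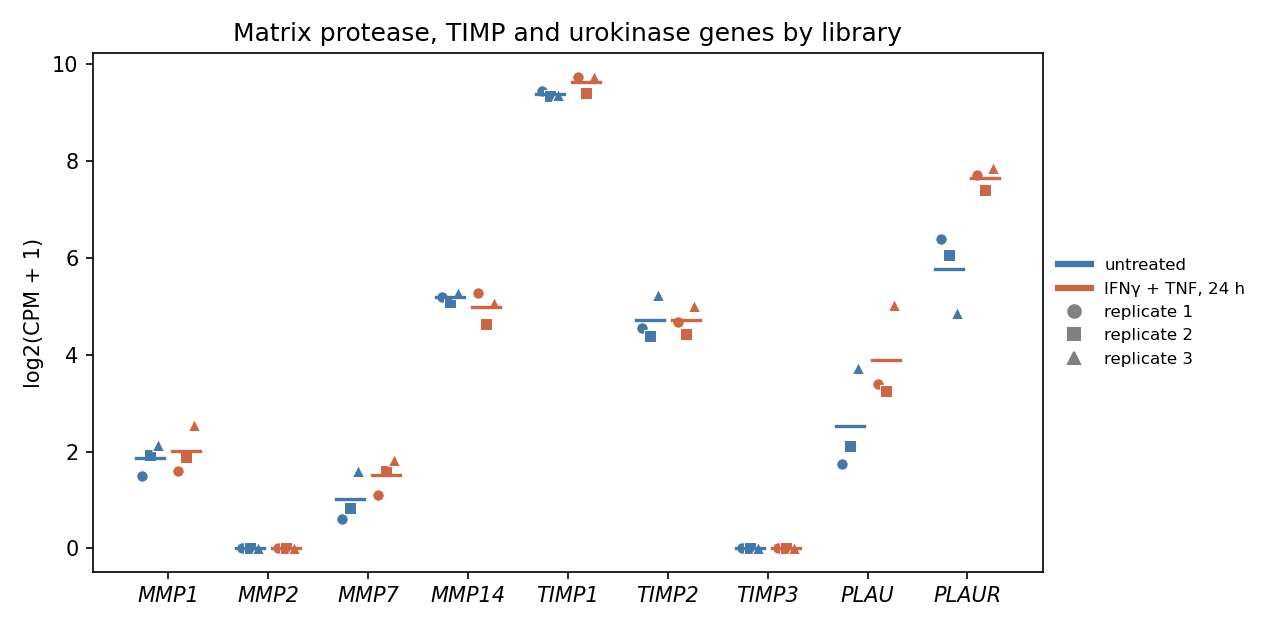
Level of each of the 9 genes in each library, as log2(CPM + 1) on the vertical axis, with blue for untreated and orange for treated libraries, shapes for replicates and bars for the mean of the 3 plotted values. PLAUR is the gene whose treated libraries all lie above its untreated ones, MMP2 and TIMP3 lie at 0, and replicate 3 is the highest PLAU library in each group.

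PLAUR encodes the receptor that holds urokinase at the cell surface (ENSG00000011422; chromosome 19, 43646095 to 43670547, minus strand, GRCh38). Its levels were 82.9, 66.1 and 28.0 CPM in untreated replicates 1, 2 and 3, and 208.3, 167.8 and 230.0 CPM in treated replicates 1, 2 and 3. The groups did not overlap, and untreated replicate 3 was the lowest of the 6. Over all genes tested, 13.9% had groups that did not overlap with the treated libraries higher. Group means were 59.0 ± 28.1 and 202.0 ± 31.6 CPM (SD, n = 3 each), and the log2 fold change was 1.78 (SE 0.35, 95% interval 0.98 to 2.57), with an edgeR adjusted p of 0.0144. It did not pass the threshold without untreated replicate 2 (edgeR adjusted p 0.0547) or without treated replicate 3 (0.0665), with log2 fold changes of 1.87 and 1.68. No exon of another gene on the same strand covers PLAUR.

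PLAU encodes urokinase, the plasminogen activator that binds this receptor (ENSG00000122861; chromosome 10, 73909177 to 73917496, plus strand). It had 9, 13 and 54 counts in untreated replicates 1, 2 and 3, or 2.35, 3.35 and 12.2 CPM. In treated replicates 1, 2 and 3 it had 33, 38 and 112 counts, or 9.49, 8.53 and 31.8 CPM. Replicate 3 held the highest level in each group, and untreated replicate 3 lay above treated replicates 1 and 2, so the groups overlapped. The log2 fold change was 1.44 (SE 0.69, 95% interval -0.11 to 2.99), with an edgeR adjusted p of 0.294. The size of the change depended on single libraries. Without untreated replicate 3 the log2 fold change was 2.52 and passed the threshold (edgeR adjusted p 0.0206). Without treated replicate 3 it was 0.58 (edgeR adjusted p 0.845). PLAU also passed with no filter on low counts (edgeR adjusted p 0.00131). For each replicate number the treated library lay above the untreated one. With a replicate block, a term for these numbers, PLAU passed as well (log2 fold change 1.52, edgeR adjusted p 0.000688). The labels do not say that equal numbers mark a shared batch. Of all 13 alternatives, PLAU passed in 3. The fits with no filter and with the block also raised the calls over all genes, from 819 to 1328 and 1513.

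The library of untreated replicate 3 was thus low for the receptor and high for its ligand. Counts of PLAUR per count of PLAU were 35.3, 19.8 and 2.30 in untreated replicates 1, 2 and 3, and 21.9, 19.7 and 7.23 in treated ones. The ratio was lowest in replicate 3 of each group, and the ranges of the groups overlapped. Among the 7 members with counts, untreated replicate 3 was the highest untreated library for 5 (MMP1, MMP7, MMP14, TIMP2 and PLAU) and the lowest for 1 (PLAUR). Its count-weighted exonic length was 4484 bases, against 4238 and 4275 in the other untreated and 4204 to 4376 in the treated libraries, and the part of this in the members' values was not tested.

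**Figure D2:**
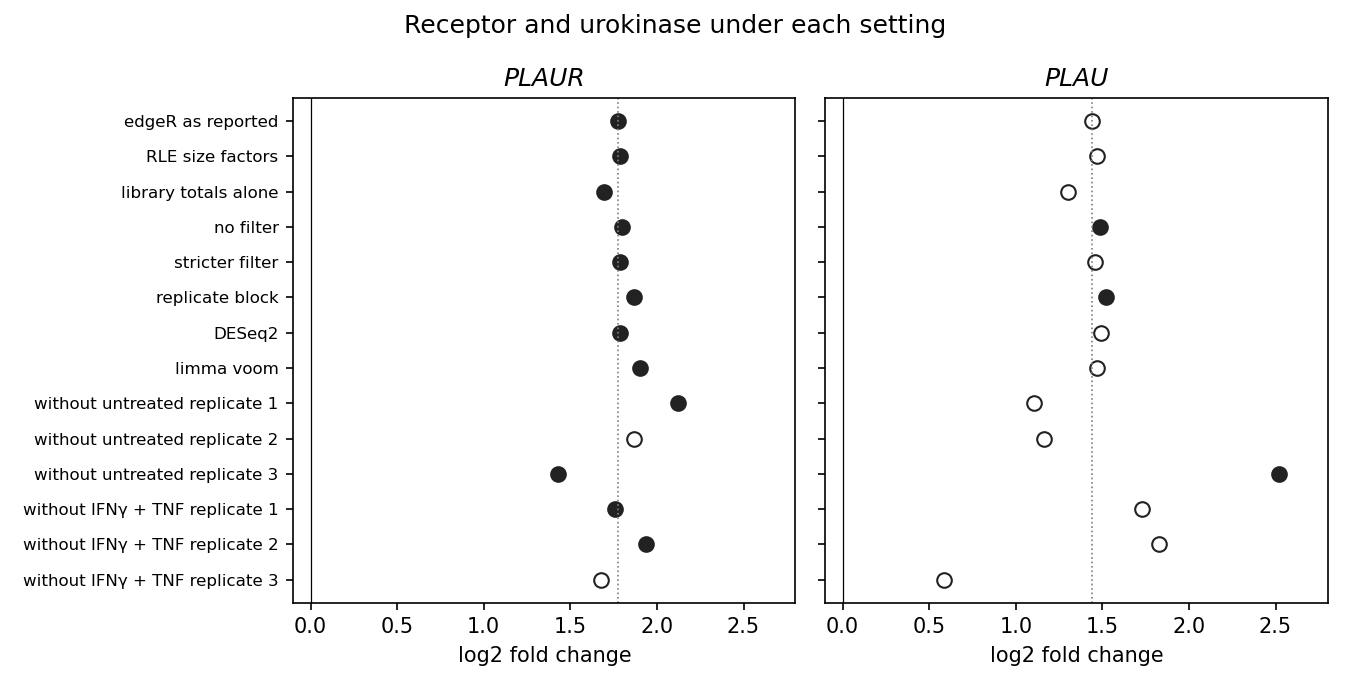
Log2 fold change on the horizontal axis for PLAUR (left) and PLAU (right) under each processing setting on the vertical axis, with filled points for an adjusted p under 0.05 and a dotted line at the value reported. PLAUR spans 1.43 to 2.12 and PLAU 0.58 to 2.52, each with both ends among the fits that leave out 1 library.

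RefSeq promoter windows (GRCh38.p14) were at hand for 6 of the 9 members, and the 250 bases before the start site were searched on both strands. PLAUR (chr19:43670170-43670419, minus strand) and MMP7 (chr11:102530748-102530997, minus strand) are shown because they were the members with the AP-1 motif TGANTCA. PLAU (chr10:73910882-73911131, plus strand, the downstream one of its 2 windows) is shown as the partner of PLAUR. Each is written 5′ to 3′ up to the base before the start site, with matches in capitals.

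PLAUR: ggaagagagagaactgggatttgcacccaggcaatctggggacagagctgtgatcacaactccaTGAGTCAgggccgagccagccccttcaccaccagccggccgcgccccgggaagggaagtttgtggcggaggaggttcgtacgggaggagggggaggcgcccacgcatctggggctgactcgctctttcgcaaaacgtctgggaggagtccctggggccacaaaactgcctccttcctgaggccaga
PLAU: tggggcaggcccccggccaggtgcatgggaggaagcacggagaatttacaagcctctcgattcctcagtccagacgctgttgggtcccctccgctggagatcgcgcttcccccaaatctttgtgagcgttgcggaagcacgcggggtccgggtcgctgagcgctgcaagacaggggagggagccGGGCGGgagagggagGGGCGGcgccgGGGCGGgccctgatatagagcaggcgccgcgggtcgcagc
MMP7: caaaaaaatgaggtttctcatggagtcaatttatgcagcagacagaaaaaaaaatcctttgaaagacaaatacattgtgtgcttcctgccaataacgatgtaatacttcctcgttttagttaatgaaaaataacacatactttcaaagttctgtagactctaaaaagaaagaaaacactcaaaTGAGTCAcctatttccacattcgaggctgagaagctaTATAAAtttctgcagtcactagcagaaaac

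The capitals in PLAUR mark TGAGTCA, at bases -186 to -180 from the start site. In MMP7 they mark TGAGTCA at -67 to -61 and the TATA motif TATAAA at -30 to -25, and in PLAU 3 matches to the GC box GGGCGG. The AP-1 motif is in 6.57% of the 35116 RefSeq promoter windows of this length, TATAAA in 10.7% and GGGCGG in 42.6%. The interferon gamma motif TTCNNNGAA (6.57% of all windows), the kappaB motif (GGGA, 2 free bases, TTCC; 1.4%) and the interferon response motif (GAAA, 2 free bases, GAAA; 3.02%) had no match in the windows of the 6 members, which says only that these letters are not there. A match is a string of letters and no measurement of binding.

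TIMP1 encodes a secreted inhibitor of most MMPs (ENSG00000102265; chromosome X, 47582408 to 47586789, plus strand). Its levels were 698.4, 649.6 and 653.2 CPM in untreated replicates 1, 2 and 3, and 856.5, 673.5 and 855.6 CPM in treated ones. Treated replicates 1 and 3 lay above every untreated library, whereas treated replicate 2 lay among them. The log2 fold change was 0.25 (SE 0.16, 95% interval -0.11 to 0.62), with an edgeR adjusted p of 0.475, so a rise of more than 0.62 lay outside the interval. TIMP1 had the smallest spread of the members in untreated cells, a coefficient of variation of 4.08%, against 91.0% for PLAU.

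TIMP2, which inhibits MMPs and also takes part in the activation of the MMP2 precursor by MMP14, is ENSG00000035862 (chromosome 17, 78852977 to 78925387, minus strand). It had 22.4, 19.8 and 36.4 CPM in untreated and 24.5, 20.7 and 31.2 CPM in treated replicates 1, 2 and 3. Replicate 3 was the highest in each group, and the treated range lay within the untreated one. Its log2 fold change was -0.05 (SE 0.29, 95% interval -0.70 to 0.60; edgeR adjusted p 0.962) and changed sign in 2 of the fits without 1 library. Exons of CEP295NL cover 3.52% of its exonic bases on the same strand and none of the last 500.

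TIMP3, an inhibitor that binds to the matrix (ENSG00000100234; chromosome 22, 32801705 to 32863041, plus strand), had 0 counts in all 6 libraries. A count of 0 allows up to 3 counts, which corresponded to 0.681 to 0.827 CPM of the library totals. No same-strand exon of another gene covers TIMP3. The window before its start (chr22:32801455-32801704, plus strand) is shown because no read of the gene was counted. Its bases are 72.4% G or C, the highest share among the members' windows, and the capitals mark its 5 matches to GGGCGG on either strand.

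TIMP3: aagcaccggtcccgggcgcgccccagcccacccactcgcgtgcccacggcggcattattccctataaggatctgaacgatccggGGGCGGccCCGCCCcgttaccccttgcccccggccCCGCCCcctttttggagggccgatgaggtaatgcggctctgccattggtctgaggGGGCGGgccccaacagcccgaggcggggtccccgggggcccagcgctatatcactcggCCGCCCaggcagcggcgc

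MMP14 encodes a membrane-anchored MMP that cleaves collagen and activates the MMP2 precursor (ENSG00000157227; chromosome 14, 22836560 to 22849041, plus strand). It had 35.7, 33.2 and 37.5 CPM in untreated and 37.7, 23.8 and 32.7 CPM in treated replicates 1, 2 and 3. The treated range enclosed the untreated one. The log2 fold change was -0.18 (SE 0.22, 95% interval -0.69 to 0.32; edgeR adjusted p 0.766), and it was 0.04 without treated replicate 2. Its substrate MMP2, a gelatinase (ENSG00000087245; chromosome 16, 55389700 to 55506691, plus strand), had 0 counts in all 6 libraries, and same-strand exons of another gene cover 3.70% of its exonic bases and none of the last 500.

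The secreted MMPs with counts were near the limit of depth. MMP1, the interstitial collagenase (ENSG00000196611; chromosome 11, 102789401 to 102798160, minus strand), had 7, 11 and 15 counts in untreated replicates 1, 2 and 3 and 7, 12 and 17 in treated ones. The ranges of the groups nearly coincided, and the log2 fold change was 0.23 (SE 0.46, 95% interval -0.82 to 1.27; edgeR adjusted p 0.876), which changed sign without treated replicate 3. MMP7, matrilysin (ENSG00000137673; chromosome 11, 102520508 to 102530750, minus strand), had 2, 3 and 9 counts without and 4, 9 and 9 with the cytokines, and did not pass the filter on low counts. In a fit that kept all genes with any count, its log2 fold change was 0.77 (SE 0.66, 95% interval -0.52 to 2.06; edgeR adjusted p 0.692). Both intervals include 0, and changes of any size within them remain compatible with these counts.

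Per kilobase of exonic length, untreated levels followed the order TIMP1 (461.3 CPM per kilobase), PLAUR (13.2), MMP14 (7.68), TIMP2 (4.65), PLAU (2.02), MMP1 (0.98) and MMP7 (0.478). TIMP1 lay above all others in every library, with a lowest value of 449.2. In untreated cells PLAUR (6.29 to 18.6 CPM per kilobase) overlapped both MMP14 (7.18 to 8.12) and TIMP2 (3.52 to 6.46). PLAU (0.796 to 4.14) overlapped TIMP2, MMP1 (0.667 to 1.24) and MMP7 (0.225 to 0.877), and MMP1 overlapped MMP7. MMP14 lay above TIMP2 without overlap on this scale, although in CPM their untreated ranges overlapped (33.2 to 37.5 against 19.8 to 36.4). The overlaps of TIMP2 and of MMP7 with PLAU were absent in CPM, where PLAU ran from 2.35 to 12.2. In treated cells PLAUR (37.6 to 51.6 CPM per kilobase) stood clear of MMP14 (5.15 to 8.15), and PLAU (2.89 to 10.8) overlapped both MMP14 and TIMP2 (3.67 to 5.55).

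The balance of inhibitor to protease transcripts was described per library, without a test. Counts of the 3 TIMPs per count of the 4 MMPs were 18.9, 18.2 and 16.1 in untreated and 21.6, 24.3 and 22.2 in treated replicates 1, 2 and 3. The lowest treated ratio exceeded the highest untreated one. Among single genes tested, groups did not overlap in 13.9% with treated libraries higher and in 11.9% with them lower. Neither TIMP1 nor MMP14 was called (edgeR adjusted p 0.475 and 0.766). TIMP1 supplied 94.7% to 97.2% of the TIMP counts, and MMP14 81.6% to 93.8% of the MMP counts, so the ratio is close to that of TIMP1 to MMP14. MMP15 and MMP24, which are not members, are outside this ratio. In untreated replicates 1, 2 and 3 they had 314, 241 and 231 counts and 547, 591 and 542 counts. MMP14 had 137, 129 and 166. Both were called lower after the cytokines, so the ratio does not give the balance over all MMP transcripts. These are counts of transcripts, not of active enzyme.

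Further genes of the pathway came from a list of 85 fixed by symbol, of which 62 had a count and 37 were tested. Of these 37, 4 were called higher and 4 lower, with a median log2 fold change of 0.13, where all genes tested gave 5.58% higher, 2.55% lower and a median of -0.03. The counts for its smaller groups below rest on 3 to 12 tested genes each and are read against the same shares. Among other MMPs, 8 of 19 had 0 counts, 3 were tested and 2 were called lower. MMP24 encodes a membrane-anchored MMP. It went from 142.6, 152.1 and 122.6 CPM in untreated to 62.4, 40.7 and 28.4 CPM in treated replicates 1, 2 and 3 (log2 fold change -1.67, SE 0.28, edgeR adjusted p 0.00576). The gene passed the threshold in all 13 alternatives. MMP15, another membrane-anchored MMP, went from 81.9, 62.0 and 52.2 CPM to 32.5, 22.2 and 26.1 CPM (log2 fold change -1.28, SE 0.24, edgeR adjusted p 0.0109). In both genes every treated library lay below every untreated one, which held for 11.9% of all genes tested. Leaving out treated replicate 2 or 3 took MMP15 past an edgeR adjusted p of 0.05, to 0.0692 and 0.0645. MMP14 supplied 13.4% to 17.7% of the counts of these 3 membrane-anchored MMPs in untreated and 27.5% to 37.5% in treated libraries.

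MMP25, a further membrane-anchored MMP named here after its values were seen, had 0 counts in the 3 untreated and 8, 8 and 4 in the treated libraries. Its mean treated level was 2.24-fold the highest level that 3 counts gave in an untreated library. That level was taken on library totals without TMM scaling. The lowest treated library had 1.14 CPM, so 2.24-fold is not a lower bound. MMP25 failed the filter on low counts. In a fit of all 19158 genes with any count, where 4.43% of genes were called higher, MMP25 was among them (edgeR adjusted p 0.000351). MMP25 entered that fit through its treated counts alone and was picked by its values, so the call is no independent support for a rise. MMP9, a gelatinase often induced by TNF in other cells, had 9, 6 and 3 counts without and 9, 11 and 7 with the cytokines, and was not called in that fit (edgeR adjusted p 0.692).

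**Figure D3:**
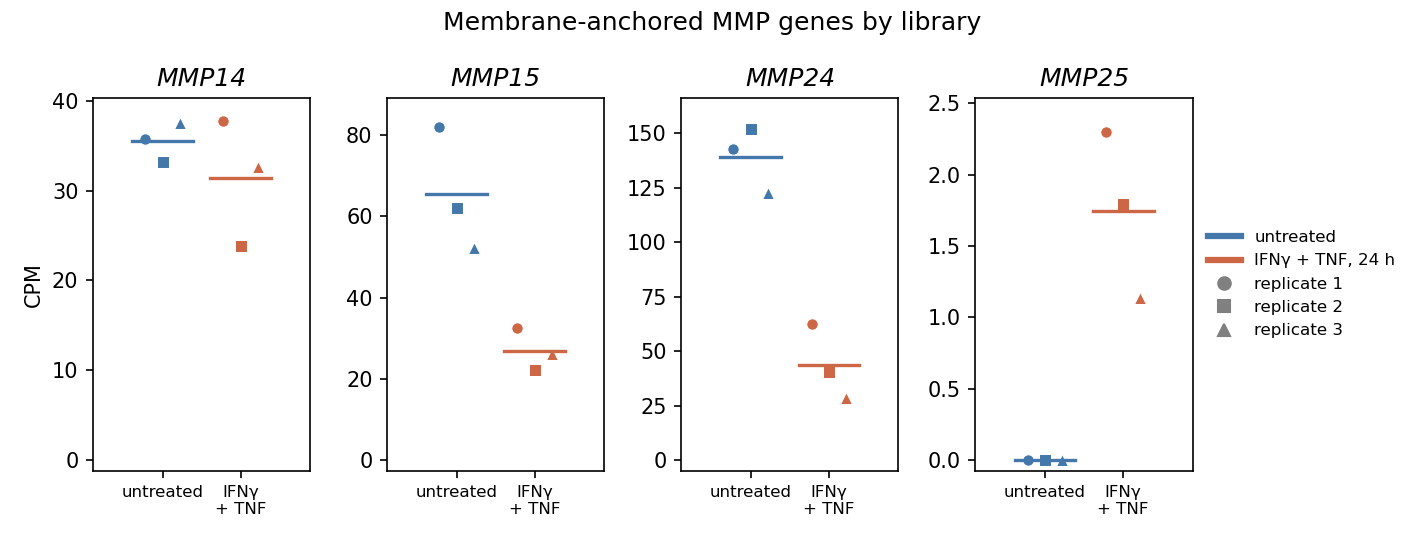
CPM on the vertical axes, each with its own scale from 0, for 4 membrane-anchored MMP genes, with points for libraries and bars for the group mean. MMP15 and MMP24 were lower in every treated than in every untreated library, MMP14 overlapped, and MMP25 was at 0 in untreated libraries.

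In the plasminogen system, 7 of 12 listed genes were tested, with 1 called higher and 0 lower. PLGRKT, a cell-surface plasminogen receptor, had 66.5, 64.3 and 45.9 CPM in untreated and 96.4, 120.8 and 97.7 CPM in treated replicates 1, 2 and 3 (log2 fold change 0.83, SE 0.21, edgeR adjusted p 0.0402). It was called in 8 of 13 alternatives, and in the fits without untreated replicate 1 or 2 or any 1 treated replicate its edgeR adjusted p ran from 0.0594 to 0.135. PLAT, the tissue plasminogen activator, had 23, 14 and 6 counts without and 14, 20 and 18 with the cytokines (edgeR adjusted p 0.828), and plasminogen itself (PLG) had 0.

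Among MMP inhibitors and inducers outside the members, 1 of 3 tested was called higher. TFPI2, a matrix-bound inhibitor of plasmin and other serine proteases, had 105.8, 81.1 and 39.1 CPM in untreated and 157.4, 166.9 and 236.0 CPM in treated replicates 1, 2 and 3. As with PLAUR, untreated replicate 3 was the lowest and treated replicate 3 the highest library. The log2 fold change was 1.31 (SE 0.34, edgeR adjusted p 0.0472). It missed the threshold with scaling to library totals (0.0538), without untreated replicate 2 (0.138), and without any 1 treated replicate (0.0774 to 0.194). BSG, an inducer of MMPs, stood at 929.4 ± 8.94 CPM without and 994.6 ± 111.1 CPM with the cytokines (SD, n = 3 each; edgeR adjusted p 0.837), and TIMP4 had 0 counts.

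Of the ADAM and ADAMTS proteases, 12 of 28 were tested and 1 was called lower. ADAMTS15, which cleaves matrix proteoglycans, had 53, 53 and 37 counts without and 8, 15 and 2 with the cytokines (log2 fold change -2.47, SE 0.51, edgeR adjusted p 0.0174). It missed the threshold without untreated replicate 2 (edgeR adjusted p 0.0728) or treated replicate 1 (0.0574). Among other pericellular proteases, 5 of 10 were tested and HTRA1, a secreted serine protease, was called lower. Its counts were 81, 83 and 243 without and 37, 49 and 36 with the cytokines (log2 fold change -1.61, SE 0.39, edgeR adjusted p 0.0374). It missed the threshold with limma voom (0.0718) and without any 1 treated replicate (edgeR adjusted p 0.106 to 0.146). Untreated replicate 3 held most of its untreated counts, and without that library the log2 fold change was -1.004. FURIN, a convertase that activates MMP14, had 47.9 ± 4.90 and 48.0 ± 11.7 CPM (SD, n = 3 each; edgeR adjusted p 0.998).

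**Figure D4:**
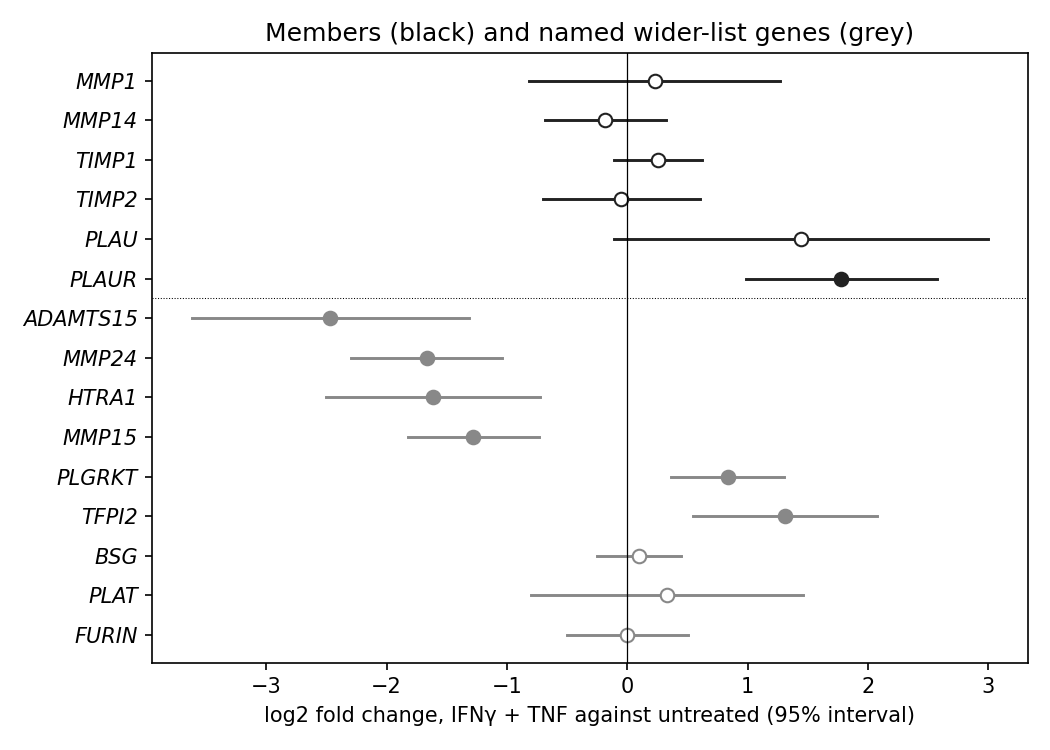
Log2 fold change of treated against untreated cells on the horizontal axis with its 95% interval, for the 6 members tested (black) and for wider-list genes tested and named here (grey), filled where the adjusted p is under 0.05. AP-1 and ETS factors are not plotted. PLAUR is the filled black point at 1.78, MMP24, MMP15, ADAMTS15 and HTRA1 lie below 0, and PLGRKT and TFPI2 above it.

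AP-1 and ETS factors, which bind the promoters of several protease genes, were listed for context. Of 11 such genes 7 were tested, all with positive log2 fold changes, as 4765 of the 10067 genes tested had, and 2 were called higher (5.58% over all genes). JUNB had 69.6 ± 14.5 CPM without and 390.9 ± 67.8 CPM with the cytokines (SD, n = 3 each), log2 fold change 2.49 and edgeR adjusted p 0.000151. ETS1 had 37.1 ± 13.1 and 85.8 ± 11.3 CPM (SD, n = 3 each; log2 fold change 1.20, edgeR adjusted p 0.0246). FOSL1 had 177.0, 137.2 and 61.5 CPM in untreated and 292.6, 200.1 and 229.4 CPM in treated replicates and missed the threshold (edgeR adjusted p 0.159), although its groups did not overlap. FOSL1 passed the threshold in 3 of 13 alternatives: no filter (0.00106), the replicate block (0.000776) and the fit without untreated replicate 1 (0.0483). ETS1 did not pass it with library totals alone (0.0707), without untreated replicate 2 (0.109) or without treated replicate 2 or 3 (both 0.0787).

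The genes whose pattern over the 6 libraries was most like that of PLAUR were sought among 6743 others with a mean of at least 10 CPM. Likeness was the root mean square difference of log2 CPM after each gene was centred on its own mean. STOML1 (0.12), GTPBP1 (0.205) and MT2A (0.21) had the smallest differences on that log2 scale. STOML1 had 97, 76 and 39 counts in untreated replicates 1, 2 and 3 and 207, 186 and 225 in treated ones, so it had its lowest value in untreated replicate 3 as PLAUR did. This is a description over 6 libraries that share the treatment, and no shared control follows from it.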

How the data were processed

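The deposited values are raw read counts per gene, made by the authors with featureCounts 2.0.1 in long-read, strand-specific mode on exons of Ensembl release 105 (GRCh38), per the file headers. The submitters' processing notes name minimap2 2.24, SAMtools 1.16 and featureCounts 2.0.0. Options for multi-mapping or multi-gene reads were not set, per the file headers. RNA input was 500 ng of poly(A) RNA, sequencing ran 72 h, and reads had quality above 7, per the labels. Alignment names in the file headers carry the word dmso, which the labels do not, and groups were taken from the titles.

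Symbols came from a name table that held 61369 of the 61541 identifiers. Counts were tested with edgeR 4.0.16 in R 4.3.3 (quasi-likelihood F test, TMM, filterByExpr, group as the sole term), with Benjamini-Hochberg adjustment over all 10067 genes tested and a threshold of 0.05. SE was taken as the size of the log2 fold change over the square root of F, and 95% intervals are unadjusted. The intervals include the spread between libraries of a group as edgeR estimated it. Floors for counts of 0 cover counting error only. The script was tested on simulated data.

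Alternatives were RLE size factors, library totals, no filter, at least 5 CPM in 3 libraries, a replicate block, DESeq2 1.42.0, limma 3.58.1 voom and leaving out each library. All 9 members are named, with every listed gene past the threshold, PLAT, BSG, MMP9 and FURIN, and the 3 genes most like each called member. Single values of some listed genes are not reported here. Members and lists were chosen with earlier results of these data known.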

Additional observations from a re-analysis of the deposited data

How the results depend on the processing

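Of all 13 alternatives, PLAUR passed the threshold in 11, PLAU in 3, and TIMP1, TIMP2 and MMP14 in 0. Leaving out 1 library at a time, log2 fold changes ran from 1.43 to 2.12 for PLAUR, 0.58 to 2.52 for PLAU, -0.18 to 0.47 for MMP1, -0.33 to 0.04 for MMP14, 0.20 to 0.41 for TIMP1 and -0.21 to 0.26 for TIMP2. PLAU passed with no filter (log2 fold change 1.49, edgeR adjusted p 0.00131), with the replicate block (1.52, 0.000688) and without untreated replicate 3 (2.52, 0.0206). Over all genes, 819 passed as reported, 1328 with no filter, 1513 with the replicate block and 455 to 1178 without 1 library. With no filter 19158 genes were tested, and the SE of a gene could differ too, as for PLAU (0.69 as reported, 0.37 with no filter). The cause of the differences in calls was not tested. Library totals alone moved the split of calls from 562 higher and 257 lower to 485 and 364, and the median of all genes from -0.03 to -0.13. Of listed pathway genes, 4 were called higher as reported, 2 with library totals, 7 with no filter and 1 to 5 without 1 library; 4 were called lower, and 2 to 4 without 1 library. Whether equal replicate numbers mark paired libraries is not stated in the labels and was not settled by the values. Deviations from the group means correlated at 0.651, -0.0037 and 0.374 over 10067 genes for numbers 1, 2 and 3. Treated replicates 1 and 3 correlated best with the untreated library of the same number. Treated replicate 2 correlated best with untreated replicate 3 (0.413). Within a group of 3 libraries these deviations are not independent. Counts per library, under 20 for MMP1 and under 10 for MMP7, limit what these genes can show.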
